A study of Homo sapiens with 6 samples.

Results

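Metallothioneins are small, cysteine-rich proteins that bind zinc and copper in the cytosol and buffer the free metal of the cell. Their genes sit side by side on chromosome 16q and are switched on by MTF1, a zinc-finger transcription factor that senses free zinc and binds short metal response elements in their promoters. MTF1 also acts on SLC30A1 (ZnT1), the exporter that moves zinc out of the cell across the plasma membrane, so metallothionein and SLC30A1 transcripts are widely read as markers of the zinc available to a cell. In the kidney, proximal tubule cells make metallothioneins and hold much of the cadmium that enters the body.

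The 8 genes described here were chosen by symbol: the metallothioneins MT1E, MT1F, MT1G, MT1M, MT1X and MT2A, the regulator MTF1 and the exporter SLC30A1, out of 25369 genes listed for each sample. All 8 had a row in every sample, and 5 of them (MT1F, MT1X, MT2A, MTF1 and SLC30A1) had enough reads to be tested. The other metallothioneins of the cluster, their pseudogenes and lists of zinc, copper, iron and stress genes were followed beside them.

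RNA-Seq was carried out on Caki2, a human clear cell renal cell carcinoma (ccRCC) line that makes no PBRM1 protein, PBRM1 being a subunit of the PBAF chromatin remodeling complex. Caki2+Vector cells carried an empty vector, and Caki2+PBRM1 cells carried a tetracycline-inducible lentiviral vector with full-length PBRM1. For each, 3 replicates (A, B and C) were sequenced. Both groups had the same parental line and, per the methods, the same exposure to doxycycline (2 µg/ml). The comparison thus sets a stable line that re-expresses PBRM1 from an inducible promoter against a stable line with the empty vector. An effect of PBRM1 and other differences between these separately made lines cannot be told apart here. The labels do not say whether the replicates were separate cultures, and the p-values measure only the spread between these samples. No metal was added or measured as a part of the labelled design, and the zinc content of the cells was not analysed here.

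The libraries held 7312955 to 10835355 reads on genes. The normalized count of PBRM1 itself was 186.5 ± 7.37 in the Caki2+Vector libraries and 2545 ± 127 in those of Caki2+PBRM1 (SD, n = 3 each), so that every library matched its label (log2 fold change 3.76). Renal and epithelial markers summed to 34088 to 35174 without PBRM1 and to 34155 to 35002 with it, with 8 of 10 genes at a mean of at least 10. Fibroblast markers summed to 81.4 to 92.6 without PBRM1 and to 78.9 to 104 with it, with 2 of 4 genes at a mean of at least 10, and their part in the results was not tested. Leukocyte markers summed to at most 10.4 and endothelial markers to at most 2.67, and CD3E and CDH5, which define T cells and endothelium, were listed at 0. Caki2+Vector A stood apart from its group, with a chi-square per degree of freedom of 3.09 and 2.84 against replicates B and C, which gave 1.34 between them, while pairs of Caki2+PBRM1 replicates gave 1.19 to 1.22. Fold changes without it are given for MT2A, MT1X, the summed metallothionein count and the named genes whose call changed.

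Sequence bears on how these genes are known to be switched on and on how far short reads can tell them apart. The promoters below are the 250 bases before the gene start in RefSeq on GRCh38.p14, read 5′ to 3′ along the strand of the gene. They are shown because they carry the elements through which MTF1 acts, here searched as TGCACNC or TGCGCNC on both strands and printed in capitals (a match on the other strand reads as its reverse complement). MT2A and MT1X are the abundant genes of the cluster, MT1H is a gene of the cluster without reads, and SLC30A1 is the zinc exporter.
MT2A (chr16:56608334-56608583, plus strand): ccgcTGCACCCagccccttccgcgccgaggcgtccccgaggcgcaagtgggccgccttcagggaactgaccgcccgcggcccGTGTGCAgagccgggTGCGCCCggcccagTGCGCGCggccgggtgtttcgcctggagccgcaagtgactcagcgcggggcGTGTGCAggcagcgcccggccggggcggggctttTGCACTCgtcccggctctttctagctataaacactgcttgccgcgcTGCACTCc
MT1X (chr16:56682220-56682469, plus strand): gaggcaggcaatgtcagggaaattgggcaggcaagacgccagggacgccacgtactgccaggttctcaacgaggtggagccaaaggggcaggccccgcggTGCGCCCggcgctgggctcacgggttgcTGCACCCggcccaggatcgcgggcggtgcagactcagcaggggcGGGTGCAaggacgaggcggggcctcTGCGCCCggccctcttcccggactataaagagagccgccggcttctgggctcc
MT1H (chr16:56669564-56669813, plus strand): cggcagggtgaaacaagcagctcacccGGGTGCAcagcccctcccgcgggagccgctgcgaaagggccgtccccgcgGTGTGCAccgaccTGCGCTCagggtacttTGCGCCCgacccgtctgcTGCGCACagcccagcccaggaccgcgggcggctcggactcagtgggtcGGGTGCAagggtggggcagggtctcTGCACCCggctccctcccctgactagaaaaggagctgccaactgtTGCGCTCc
SLC30A1 (chr1:211579162-211579411, minus strand): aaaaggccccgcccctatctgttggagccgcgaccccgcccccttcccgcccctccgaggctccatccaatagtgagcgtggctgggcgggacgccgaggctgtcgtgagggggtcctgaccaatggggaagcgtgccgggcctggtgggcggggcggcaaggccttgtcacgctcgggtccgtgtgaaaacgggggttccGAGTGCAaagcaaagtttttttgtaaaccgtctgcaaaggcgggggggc

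The MT2A window held 7 such cores and the MT1X window held 4. One core of MT1X overlapped a GC box (GGGCGG), the kind of site bound by SP1. The MT1H window held 8 cores, MT1B 3, MT4 3 and SLC30A1 1, and the MTF1 window held 0. Among 35116 promoter windows of the same length, 24.8% held at least 1 core, 1.58% at least 3, 0.37% at least 4 and 0.0513% at least 6. MT2A and MT1X also had a TATA box (TATAAA) 29 and 30 bases before the start, a motif found in 10.7% of all windows. It was found in the windows of MT1B and MT4 as well, and not in those of MT1H, SLC30A1 and MTF1. A promoter entry was matched for 4 of the 8 members and for 7 of 17 genes looked up. No entry was matched for MT1E, MT1F, MT1G and MT1M. A match is a run of letters and not a measured binding site. Among the 7 genes with an entry, MT2A, with 7 cores, had the highest counts. MT1H, with 8 cores, had 0 reads in all 6 libraries. MTF1, which is not a metallothionein and had 0 cores, had a mean of at least 290.9 in each group. A relation between the number of cores and the number of reads was not tested.

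**Figure D1:**
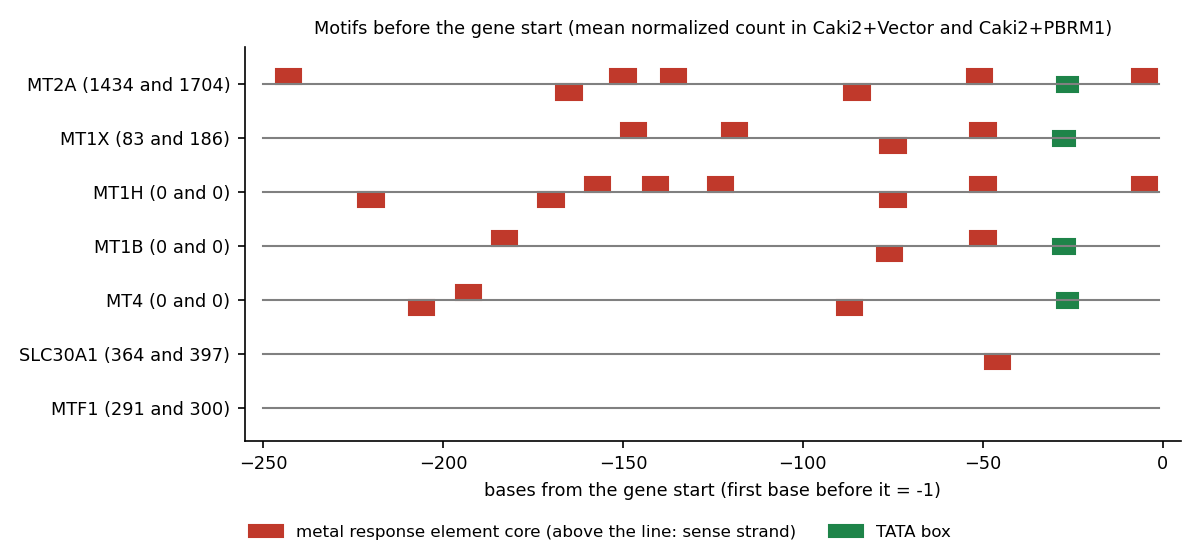
Metal response element cores (red, above the line on the sense strand and below it on the other strand) and TATA boxes (green) in the 250 bases before the gene start, with the x axis in bases from the start. The mean normalized count of each gene in Caki2+Vector and Caki2+PBRM1 (n = 3 each) follows its name: MT2A has 7 cores and 1434 and 1704, MT1H has 8 cores and no reads.

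The coding sequences of MT2A and MT1X are shown because these are the upregulated members, and the differences set how far reads of either gene can be told from those of the other. Each is 186 bases long (GENCODE on GRCh37), and the 14 bases at which they differ are in capitals.
MT2A: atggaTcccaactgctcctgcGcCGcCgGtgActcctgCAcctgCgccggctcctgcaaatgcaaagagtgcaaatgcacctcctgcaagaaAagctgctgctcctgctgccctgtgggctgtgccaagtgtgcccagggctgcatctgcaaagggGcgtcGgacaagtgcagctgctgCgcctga
MT1X: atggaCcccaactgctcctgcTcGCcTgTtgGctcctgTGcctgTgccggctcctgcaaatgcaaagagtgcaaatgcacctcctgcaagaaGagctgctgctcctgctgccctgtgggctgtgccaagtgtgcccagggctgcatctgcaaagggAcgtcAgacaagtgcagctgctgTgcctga

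The coding sequences were identical at 172 of 186 bases (92.5%), and the longest run without a difference was 63 bases, shorter than a read of 100 bases. Of the 302 windows of 100 bases along the MT2A transcript, 0 occurred anywhere else in the genome, and the same held for the 305 windows of MT1X, the 326 of MT1F, the 311 of MT1G and the 299 of MT1M. MT1E was the exception, with 28 of 647 windows (4.33%) repeated at MT1M or the pseudogene MT1JP. Windows across an exon junction cannot match the unspliced genome, so the transcripts of other genes were searched as well. These held 0 windows of MT2A, MT1E, MT1F, MT1G and MT1M. A full-length read without errors from MT2A or MT1X thus had a single matching place, although the setting for reads with several places was not given in the sources used here. In GENCODE, MT1X also lies inside a longer noncoding gene on the same strand (ENSG00000259827), which shared 67 of its windows and had no row in the files.

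MT2A, the main metallothionein gene of many human tissues, was by far the most abundant member. It lies at chr16:56642496-56643409 on the plus strand of GRCh37 (hg19) and has 3 exons. Its normalized count, the number of reads divided by a size factor for the library, was 1243.9, 1555.1 and 1504.2 in Caki2+Vector A, B and C. In Caki2+PBRM1 A, B and C it was 1720.1, 1663.9 and 1726.4. Every Caki2+PBRM1 library was above every Caki2+Vector library, and Caki2+Vector A was the lowest of all. MT2A was upregulated by a log2 fold change of 0.25 (SE 0.064, 95% interval 0.12 to 0.39, limma adjusted p = 0.00626), from 1434 ± 167 to 1704 ± 34.4 (SD, n = 3 each). Without Caki2+Vector A, whose count was 0.813 times the mean of B and C, the log2 fold change was 0.16 (adjusted p = 0.00126). The direction and the call were kept at a smaller size. In bulk RNA, as here, a change in RNA per cell and a change in the share of cells that express a gene cannot be told apart.

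MT1X, another broadly expressed gene of the MT1 group, had the largest change among the members. It is the last gene of the cluster, at chr16:56716382-56718108 on the plus strand. Its normalized count was 74.8, 82.2 and 93.5 in Caki2+Vector A, B and C, and 200.4, 167.1 and 191.4 in Caki2+PBRM1 A, B and C. The groups were far apart, and the lowest Caki2+PBRM1 library was well above the highest Caki2+Vector library. MT1X was upregulated by a log2 fold change of 1.15 (SE 0.114, 95% interval 0.92 to 1.38, limma adjusted p = 3.73e-09), from 83.5 ± 9.42 to 186.3 ± 17.2 (SD, n = 3 each). Leaving out any single library gave 1.07 to 1.23, with 1.07 without Caki2+Vector A.

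MT1F, at chr16:56691643-56694610 on the plus strand, was the remaining metallothionein member above the filter, which asked for 10 or more normalized counts in 3 or more samples. Its normalized count was 26.5, 27.4 and 20.4 in Caki2+Vector A, B and C, and 27.1, 40.0 and 30.2 in Caki2+PBRM1 A, B and C. The groups overlapped, and replicate B of Caki2+PBRM1 was the highest. The log2 fold change of 0.37 (95% interval -0.08 to 0.82) did not pass the test (limma adjusted p = 0.219). At 17 to 45 reads per library, a change as large as 0.82 could not be told from none.

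MT1E, MT1G and MT1M were near or below what the depth could detect. MT1E (chr16:56659387-56661024, plus strand) and MT1G (chr16:56700642-56701977, minus strand) each had 1 read in Caki2+Vector A and 0 in the other libraries. MT1M (chr16:56666571-56667893, plus strand) had 0 reads in all 6. A count of 0 allows up to 3 reads per library, which is a normalized count of 2.52 to 3.60. These limits cover counting error only. For MT1G and MT1M, no 100-base window matched another place in the genome or a transcript of another gene.

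MTF1, the transcription factor that senses zinc, lies at chr1:38275246-38325264 on the minus strand. Its normalized count was 296.3, 299.5 and 276.9 in Caki2+Vector A, B and C, and 306.5, 312.0 and 282.8 in Caki2+PBRM1 A, B and C. The groups overlapped, with the lowest value in replicate C of each. The log2 fold change was 0.05 (95% interval -0.11 to 0.20, limma adjusted p = 0.697). Its transcript level does not show how much of the protein was active, since MTF1 is regulated by zinc binding.

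SLC30A1, the zinc exporter and the other well-known target of MTF1, lies at chr1:211744910-211752503 on the minus strand. Its normalized count was 338.9, 381.7 and 371.6 in Caki2+Vector A, B and C, and 423.5, 404.4 and 361.7 in Caki2+PBRM1 A, B and C. Replicates A and B of Caki2+PBRM1 were above all Caki2+Vector libraries, and replicate C was below 2 of them. The log2 fold change was 0.12 (95% interval -0.03 to 0.27, limma adjusted p = 0.223). The interval lay below that of MT1X at every point and overlapped that of MT2A.

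**Figure D2:**
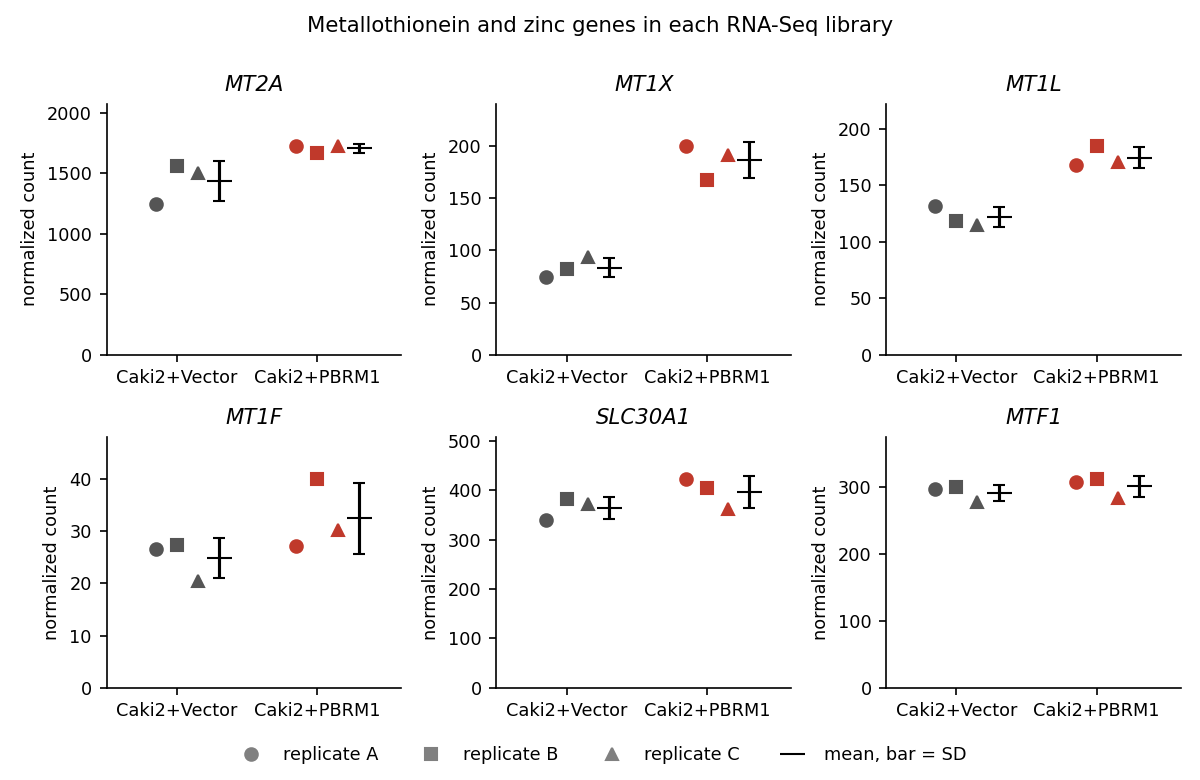
Normalized counts (y axis, from 0, a scale of its own for each gene) of the 5 tested members and the pseudogene MT1L in Caki2+Vector (grey) and Caki2+PBRM1 (red), with a symbol for each replicate letter and the mean ± SD beside them (n = 3). MT2A, MT1X and MT1L do not overlap between groups, and MT1F, SLC30A1 and MTF1 do.

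Of the 8 members, 5 were tested, 2 were upregulated, 0 were downregulated and 3 did not pass, with a median log2 fold change of 0.25. Among all 13303 tested genes, 16.2% were upregulated, 13% were downregulated (29.2% in either direction) and the median was -0.00358. The quasi-likelihood test of edgeR on whole reads, which called the same 2 members, called 30.3% of all tested genes, and DESeq2, which also called both, called 19.2%. The values of the groups did not overlap for 2 of the 5, with the higher values in Caki2+PBRM1, against 22.1% of all tested genes (41.7% in either direction). With 5 genes, and members that passed the filter only where reads were present, the share of calls is a description. For a single gene, the exact two-sided permutation test of 3 against 3 cannot go below p = 0.1, the value it gave for MT2A and MT1X.

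Within the whole metallothionein family of 15 genes and pseudogenes, 10 had at most 1 read over the 6 libraries (6 had 0 and 4 had 1). The genes without more than 1 read included MT3 and MT4, which are best known from brain and squamous epithelium, as well as MT1A, MT1B and MT1H. Outside the members, the pseudogenes MT1L and MT1DP had more than 1 read, and only MT1L passed the filter. The normalized count of MT1L was 131.6, 118.1 and 115.1 in Caki2+Vector A, B and C. In Caki2+PBRM1 A, B and C it was 167.9, 184.9 and 170.4, with no overlap. MT1L was upregulated by a log2 fold change of 0.52 (SE 0.101, 95% interval 0.31 to 0.73, limma adjusted p = 0.00022). MT1L shares its locus and strand with a noncoding gene (ENSG00000291105) that had no row in the files. Of the 379 windows of 100 bases along the transcript of that gene, which spans MT1L, 0 occurred anywhere else in the genome. The pseudogene model of MT1L was not searched by itself. MT1DP, another pseudogene, stayed between 2.83 and 11.6 and was not tested. In all, 4 family genes were tested, 3 (MT2A, MT1X and the pseudogene MT1L) were upregulated and 0 were downregulated. Of all tested genes, 16.2% were upregulated and 13% downregulated. With 4 genes that passed the filter out of 15, this count is a description.

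Levels of different genes can be compared only per length, here as the normalized count per kilobase of the transcript. In Caki2+Vector, MT2A stood at 3577 ± 416 and MT1X at 206.7 ± 23.3 (SD, n = 3). SLC30A1 (61.8 ± 3.79) and MT1F (58.3 ± 9.00) followed, with overlapping values, and MTF1 was the lowest of the 5 tested members at 36.7 ± 1.54. In Caki2+PBRM1 the level of MT1X was 461.1 ± 42.6. MT2A (4248 ± 85.8) was again the highest and MTF1 (37.9 ± 1.95) the lowest, and MT1F (76.3 ± 15.9) and SLC30A1 (67.3 ± 5.37) again overlapped. MT1L was not placed in this order, since the transcripts annotated at its locus differ too much in length. The pseudogene model has 186 bases and the transcript of the noncoding gene searched above has 478.

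The summed normalized count of the metallothionein genes, with pseudogenes left out, is not affected by reads that move between genes within the sum, although reads that move to or from a pseudogene would change it. It was 1347, 1666 and 1619 in Caki2+Vector A, B and C and 1948, 1871 and 1948 in Caki2+PBRM1 A, B and C. The ratio of the group means was 1.25, a log2 value of 0.32, and it was 0.23 on the log2 scale without Caki2+Vector A. The sum was mostly MT2A, which made up 92.9% ± 0.512 of it without PBRM1 and 88.6% ± 0.305 with PBRM1 (SD, n = 3 each). The share of MT1X went from 5.42% ± 0.435 to 9.68% ± 0.690, and that of MT1F was 1.62% ± 0.355 and 1.69% ± 0.393. For every 100 normalized counts of MT2A there were 5.29 to 6.22 of MT1X without PBRM1 and 10.0 to 11.7 with PBRM1, with no overlap (exact two-sided permutation test, p = 0.1, the smallest that 3 against 3 allows). The corresponding ratios of MT1F to MT2A (1.36 to 2.13 and 1.57 to 2.40) and of MT1L to MT2A (7.59 to 10.6 and 9.76 to 11.1) overlapped. The 2 upregulated members thus differed in size of change, with intervals on the log2 scale of 0.92 to 1.38 for MT1X and 0.12 to 0.39 for MT2A.

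Metallothionein transcripts are short, and short transcripts can be recovered unevenly from fragmented RNA. The 55 tested genes with a transcript of 350 to 500 bases, MT2A, MT1X and MT1F among them, had a median log2 fold change of -0.09. In this set 3 genes (5.45%) were upregulated, MT2A and MT1X included, and 10 were downregulated. Of all tested genes, 16.2% were upregulated and 13% downregulated. In the set, 0 genes had a log2 fold change above that of MT1X. The low MT2A value of Caki2+Vector A was accompanied by low values of MT1X (0.851 times the mean of B and C) and of the abundant ferritin genes FTH1 (0.875) and FTL (0.893), whose transcripts are longer (1203 and 871 bases, against 401 for MT2A). The member SLC30A1 (0.9) was also lower in that library, while MT1F (1.11), MT1L (1.13) and MTF1 (1.03) were not. The part of these differences in the results was not tested.

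The genes on either side of the cluster were compared with it. The nearest expressed flankers, BBS2 (a protein of the primary cilium) and NUP93 (a nuclear pore protein), had changes of -0.01 on the log2 scale (adjusted p = 0.937) and -0.02 (adjusted p = 0.783). NUDT21 and OGFOD1, farther out on the BBS2 side, had 0.07 each and did not pass. Farther out, GNAO1, a G protein subunit (0.94, adjusted p = 0.000382), and HERPUD1, which acts in endoplasmic reticulum stress (0.69, adjusted p = 3.81e-11), were upregulated. The upregulated metallothionein genes MT2A and MT1X, 73.9 kb apart, therefore lay between flankers that did not pass, with upregulated genes beyond them on both sides. Without Caki2+Vector A, NUDT21 also passed (0.11, adjusted p = 0.0347).

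**Figure D3:**
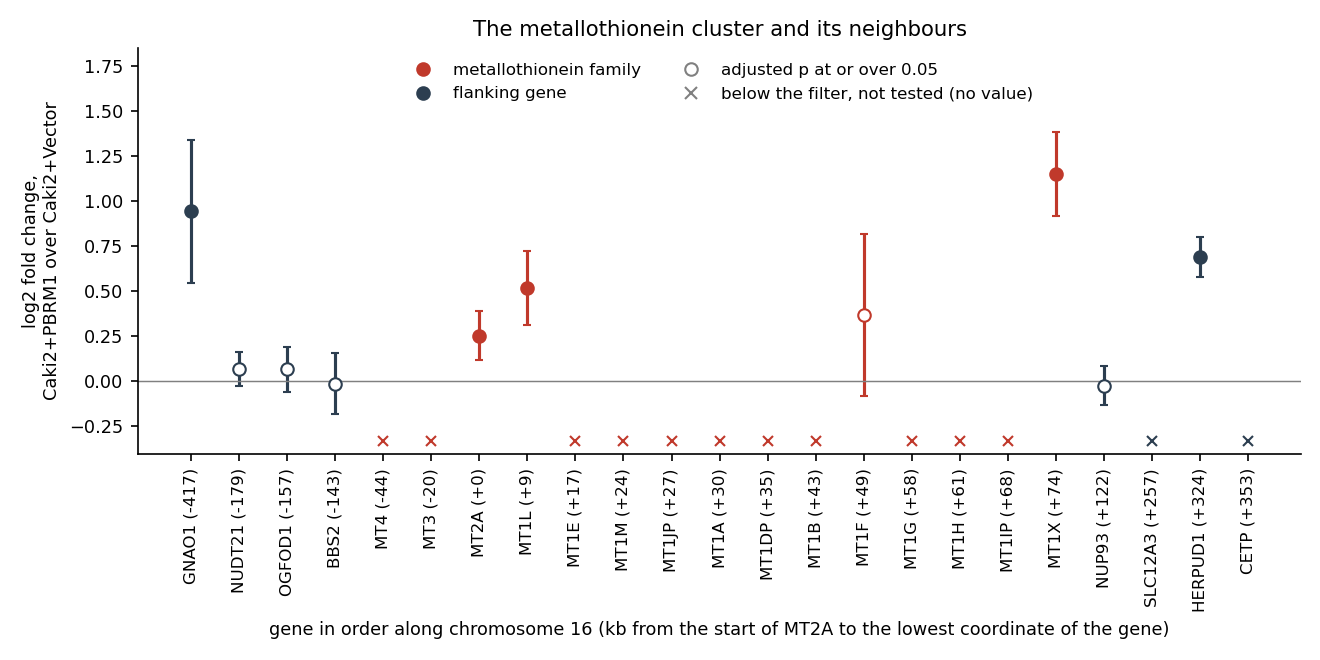
Log2 fold change (Caki2+PBRM1 over Caki2+Vector, y axis) with its 95% interval for the metallothionein family (red) and flanking genes (dark blue) in their order along chromosome 16, with the distance from MT2A in kb. Open circles did not pass an adjusted p of 0.05, and crosses mark genes below the filter, which have no value. MT1X at 1.15 is the highest and BBS2 and NUP93, on either side of the cluster, lie close to 0.

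Zinc reaches metallothioneins through transporters of the SLC39 (ZIP) family, which bring zinc into the cytosol, and leaves through those of the SLC30 (ZnT) family. Of 6 SLC30 genes tested out of 10, 2 were upregulated and 0 were downregulated, a share of 33.3% where 29.2% of all tested genes were called in either direction. SLC30A7 (ZnT7), which loads zinc into the Golgi, went from 387.8 ± 24.6 to 504.0 ± 8.62 (SD, n = 3 each), a log2 fold change of 0.38 (limma adjusted p = 4.4e-05). SLC30A5 (ZnT5), which acts in the early secretory pathway, went from 870.2 ± 5.57 to 967.8 ± 32.6, a log2 fold change of 0.15 (adjusted p = 0.0201). The call of SLC30A5 was lost without Caki2+PBRM1 A (adjusted p = 0.11) or C (adjusted p = 0.0811), which left 1 gene of the family. SLC30A4, SLC30A6 and SLC30A9 had log2 fold changes of -0.13, -0.05 and 0.08 and did not pass, as SLC30A1 did not.

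Of 11 SLC39 genes tested out of 14, 4 (36.4%) were upregulated and 1 (9.09%) was downregulated, against 16.2% and 13% of all tested genes. SLC39A13 (ZIP13), which releases zinc from vesicles of the secretory pathway, went from 149.9 ± 16.8 to 244.5 ± 13.1 (SD, n = 3 each), a log2 fold change of 0.71 (limma adjusted p = 9.23e-07). SLC39A7 (ZIP7), which releases zinc from the endoplasmic reticulum, went from 1975 ± 55.4 to 2325 ± 48.5, a log2 fold change of 0.24 (adjusted p = 4.36e-05). These transporters are located on internal membranes. SLC39A8 (ZIP8), an importer of zinc and manganese that also carries cadmium, had 0.21 (adjusted p = 0.0246), and SLC39A10 (ZIP10), a plasma membrane importer, had 0.15 (adjusted p = 0.0174). SLC39A1 (ZIP1), another plasma membrane importer, was downregulated by a log2 fold change of -0.11 (adjusted p = 0.0494). SLC39A14 (ZIP14), with a mean of at least 1158 in each group, had 0.01 (95% interval -0.09 to 0.10). The calls of SLC39A8, SLC39A10 and SLC39A1 depended on single libraries. The family had 2 calls without Caki2+Vector B or Caki2+PBRM1 C, 3 without Caki2+Vector C, Caki2+PBRM1 A or Caki2+PBRM1 B, and 6 without Caki2+Vector A, where SLC39A4 was also downregulated (-0.20, adjusted p = 0.0199). SLC39A13 and SLC39A7 passed in each of these fits.

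**Figure D4:**
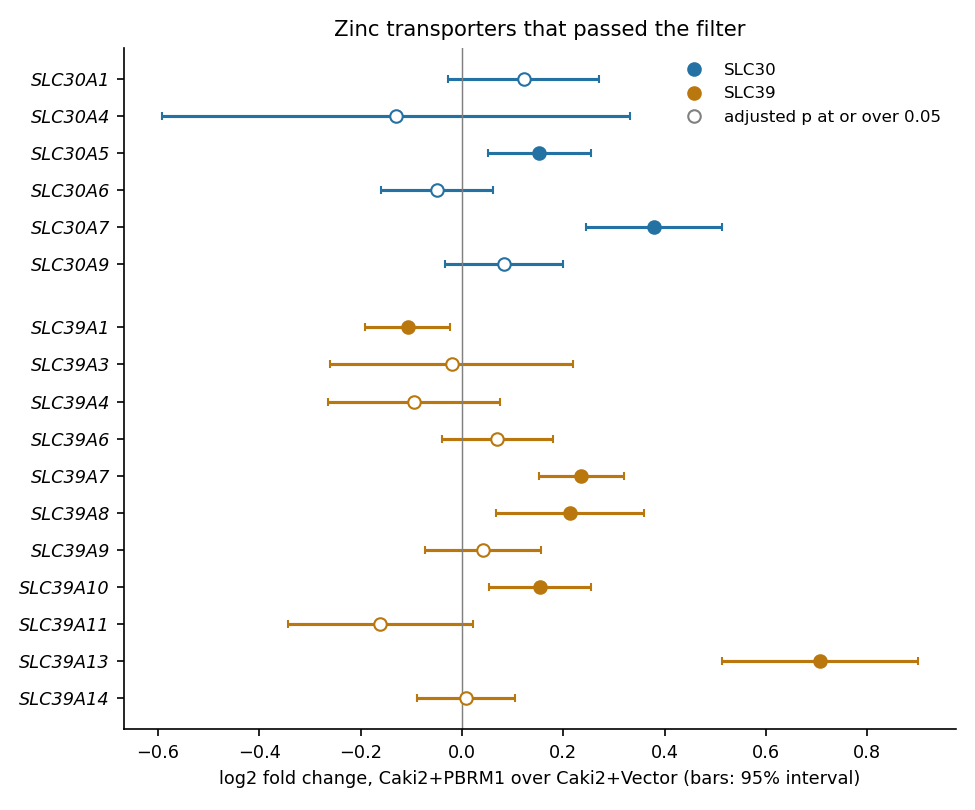
Log2 fold change (x axis) with its 95% interval for the tested SLC30 genes (blue) and SLC39 genes (ochre). Filled circles passed an adjusted p of 0.05. SLC39A13 at 0.71 and SLC30A7 at 0.38 lie farthest to the right, and SLC30A1 at 0.12 is open.

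Metallothioneins also bind copper. Of 11 tested genes of copper handling, 3 (27.3%) were upregulated and 1 (9.09%) was downregulated, with a median of -0.14, and together they stood near the 29.2% of all tested genes called in either direction. CP (ceruloplasmin), a copper-carrying ferroxidase, was 161.9, 153.1 and 151.0 in Caki2+Vector A, B and C and 588.2, 585.7 and 583.3 in Caki2+PBRM1 A, B and C, a log2 fold change of 1.91 (SE 0.0729, limma adjusted p = 1.56e-18). SOD1, the cytosolic copper-zinc superoxide dismutase, was downregulated by a log2 fold change of -0.22 (adjusted p = 0.000341). The copper exporter ATP7B (0.31, adjusted p = 0.0403) and the copper importer SLC31A1 (0.16, adjusted p = 0.0316) were upregulated by small amounts. ATP7B lost its call without Caki2+Vector B or C or Caki2+PBRM1 B or C (adjusted p = 0.0659 to 0.163), and SLC31A1 without Caki2+Vector C or any Caki2+PBRM1 library (adjusted p = 0.0695 to 0.115), which left 2 calls in the list at the lowest.

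Among the 8 tested genes of iron handling, 4 (50%) were upregulated and 0 were downregulated, against 16.2% and 13% of all tested genes. SLC40A1 (ferroportin), the exporter of iron, was 71.0, 69.0 and 62.3 in Caki2+Vector A, B and C and 162.5, 135.1 and 148.6 in Caki2+PBRM1 A, B and C. Its log2 fold change of 1.13 (SE 0.121, limma adjusted p = 1.72e-08) was of the size of that of MT1X. The groups did not overlap for SLC40A1, as for 7 of the 8 tested iron genes and 41.7% of all tested genes. SLC40A1 is itself a gene that MTF1 is known to act on, and a part of MTF1 in its change was not tested. FTH1 (0.27, adjusted p = 0.00243) and FTL (0.19, adjusted p = 0.000641), the subunits of ferritin, and TFRC (0.11, adjusted p = 0.0102), the transferrin receptor, had smaller changes. With quantile normalization FTL had 0.06 and lost its call (adjusted p = 0.241). The ferritin genes have many processed pseudogenes, so their counts are uncertain. TFRC lost its call without Caki2+PBRM1 A (adjusted p = 0.09) or B (adjusted p = 0.0523), and ACO1, an iron-sensing regulator, gained one without Caki2+Vector A (-0.16, adjusted p = 0.0396).

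Metals such as cadmium and high zinc also induce heat shock genes and HMOX1, so these were examined beside the metallothioneins. Of 11 such genes tested, 0 were upregulated and 10 (90.9%) were downregulated, where 13% of all tested genes were downregulated. Their median log2 fold change was -0.28. A part of metals in these changes, or in those of MT2A and MT1X, was not tested. HSPA1A, the stress-inducible HSP70, had -0.51 (limma adjusted p = 1.7e-09) and its near-identical copy HSPA1B had -0.49 (adjusted p = 7.0e-06), and reads of these genes may have been divided between them. HSPE1 and HSPD1, the chaperonins of mitochondria, had -0.50 (adjusted p = 0.000573) and -0.30 (adjusted p = 1.66e-08). The small heat shock protein HSPB1 had -0.47 (adjusted p = 3.57e-05) and the co-chaperone BAG3 had -0.28 (adjusted p = 0.000381). HMOX1, which breaks down heme, had -0.22 (adjusted p = 0.00583) although its groups overlapped, at 1771 to 2045 without PBRM1 and 1574 to 1808 with PBRM1. HSPA8, the constitutive HSC70, had the highest level of the list and a log2 fold change of -0.16 (adjusted p = 0.000139). DNAJB1 (-0.12, adjusted p = 0.0285) and HSPH1 (-0.11, adjusted p = 0.0266) lost their calls without Caki2+Vector C or any Caki2+PBRM1 library, and HSF1, the heat shock factor, passed only without Caki2+Vector A (-0.15, adjusted p = 0.0497).

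Glucocorticoids are the other classical inducers of MT2A. Of 9 tested genes of the glucocorticoid response, 3 (33.3%) were upregulated and 1 (11.1%) was downregulated, with a median of 0.01, against 16.2% and 13% of all tested genes. TSC22D3 (GILZ) had a log2 fold change of 0.70 (limma adjusted p = 3.49e-07), KLF9 0.53 (adjusted p = 0.00594) and DUSP1, a phosphatase of MAP kinases, 0.33 (adjusted p = 3.44e-06). FKBP5 (-0.10, adjusted p = 0.226), PER1 (-0.05, adjusted p = 0.724) and SGK1 (-0.06, adjusted p = 0.591), which respond to the same hormones, did not pass. ERRFI1, a brake on the EGF receptor, was downregulated by a log2 fold change of -0.15 (adjusted p = 0.016) and lost its call without Caki2+PBRM1 B (adjusted p = 0.0826) or C (adjusted p = 0.0507). The glucocorticoid receptor gene NR3C1 had 0.03 (95% interval -0.07 to 0.12).

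Of 9 transcription factors linked to metallothionein promoters or to zinc, 1 (11.1%) was upregulated and 0 were downregulated, below the 29.2% of all tested genes called in either direction. NFE2L2 (NRF2), the regulator of the antioxidant response, had a log2 fold change of 0.17 (limma adjusted p = 0.00174). MTF1, MTF2, SP1, USF1, USF2, HSF1, NR3C1 and ZNF658 did not pass. Without Caki2+Vector A the list had 3 calls, with USF1 (-0.20, adjusted p = 0.0453) and HSF1 (-0.15, adjusted p = 0.0497) added as downregulated.

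**Figure D5:**
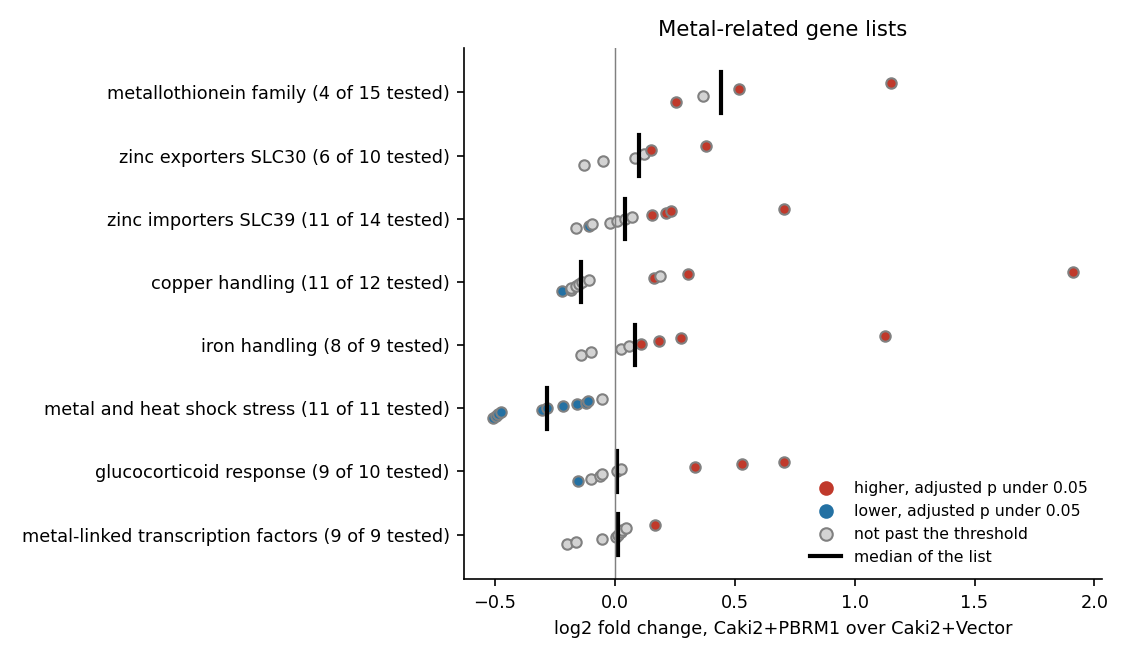
Log2 fold change (x axis) of every tested gene in each list, with red for upregulated, blue for downregulated, grey for genes that did not pass, and a black bar at the median of the list. The metallothionein genes all lie above 0, the stress genes all lie below 0 and the median of the latter is -0.28.

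The genes whose values over the 6 samples were closest to those of MT2A and MT1X were found among 10980 genes with a mean of at least 50. Likeness was the root mean square difference in log2 normalized count after centring each gene on its Caki2+Vector mean. For MT2A these were TTYH3 (0.019), PLXNB2 (0.0228), RAVER1 (0.0267), RASSF7 (0.0282) and GNB2 (0.0321), where the median over all genes was 0.236. For MT1X they were SST (0.081), the gene of the peptide hormone somatostatin, CA5B (0.0854), a mitochondrial carbonic anhydrase that binds zinc, CHST2 (0.0881), MAP7D2 (0.0941) and RNASET2 (0.0984), against a median of 0.83. No metallothionein was among either set of 5. MT1F, with means of 24.8 and 32.4 in Caki2+Vector and Caki2+PBRM1, and the family genes below the filter could not be among them. Whether the family moved together was not tested by this search. The genes nearest to MT2A shared its low value in Caki2+Vector A, and without that library RAVER1 (0.15, adjusted p = 0.0722) and RASSF7 (0.13, adjusted p = 0.141) did not pass.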

How the data were processed

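Poly(A) RNA of 3 Caki2+Vector and 3 Caki2+PBRM1 samples was sequenced as paired reads of 100 bases. The authors aligned reads to hg19 with STAR, counted them with htseq-count on 25369 genes of the UCSC annotation and normalized the counts with DESeq2. The strand setting and the treatment of reads with several matches are not given in the sources used here. The deposited values are a normalized signal, a count divided by a size factor (0.834 to 1.19). In each file 100% of the values were whole multiples of a single step (tolerance 0.001), and whole reads were recovered from it.

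The test covered 13303 genes, those with 10 or more normalized counts in 3 or more samples. Values on the log2(normalized count + 1) scale were fitted with limma 3.58.1 (trend and robust) in R 4.3.3, with Benjamini-Hochberg adjustment over all genes tested and a threshold of 0.05. Fold changes are on that scale, which understates those of low genes. Count tests on the recovered reads were alternatives and called 4030 genes with the quasi-likelihood test of edgeR 4.0.16 and 2553 with DESeq2 1.42.0. The fits were tested on simulated data. The summed count, ratios and levels per kilobase were computed in Python 3.11.15.

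The other alternatives were limma voom, other filters and pseudocounts, quantile and upper-quartile scaling, a replicate block, an adjusted p under 0.01, the sum without its most abundant member and each sample left out in turn. The members and gene lists were chosen with earlier results of these data known. Named genes were all members, list genes that passed or had the highest mean of their list, and the 5 genes most like MT2A and MT1X. Other list genes that did not pass, and genes that passed only without a sample, were named after their values were seen. Gene positions and transcripts came from GENCODE on GRCh37 and promoters from RefSeq on GRCh38.p14. No protein sequence was used here. A gene flanking the cluster is not reported here.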

Additional observations from a re-analysis of the deposited data

How the results depend on the processing

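Under 17 alternatives, MT2A, MT1X and MT1L passed the threshold in 17 and MT1F, MTF1 and SLC30A1 in 0. The log2 fold change ranged from 1.07 to 1.23 for MT1X, 0.475 to 0.576 for MT1L, 0.155 to 0.316 for MT2A (lowest without Caki2+Vector A), 0.212 to 0.485 for MT1F, 0.0712 to 0.186 for SLC30A1 and 0.011 to 0.0888 for MTF1. Over the 50 genes that the naming rule gave, 774 of 850 recomputed values kept their direction and their side of the threshold, 75 kept the direction but did not pass, 1 (NUDT21) newly passed and 0 changed direction. Outside that rule, ACO1, HSF1, SLC39A4 and USF1 newly passed without Caki2+Vector A. The summed metallothionein count, 0.32 on the log2 scale, was 0.997 without MT2A, its most abundant member, and 0.227 to 0.380 with each sample left out.

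The number of genes past the threshold, 3886 of those tested, was 2553 with DESeq2 and 2521 at an adjusted p under 0.01, and 2856 to 4170 with each sample left out. With DESeq2 the SLC30 list had 1 call, and the SLC39, copper and glucocorticoid lists had 2 each. At an adjusted p under 0.01, the SLC30 list had 1 call and the SLC39 and copper lists had 2 each. The copper list had 2 calls with no filter on low values, and the iron list had 2 with quantile normalization. With each sample left out, the SLC30 list had 1 to 2 calls, SLC39 2 to 6, copper 2 to 4 and metal-linked transcription factors 1 to 3. The cause of these differences was not tested.

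Replicates share only a letter. Deviations from the group means correlated at -0.008 to 0.014 between samples of the same letter, and a replicate block gave 4107 calls (2249 upregulated and 1858 downregulated), with the same calls for the members. Genes with fewer than about 10 reads, MT1E, MT1G and MT1M among them, were beyond what this depth can compare.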
